A study of Mus musculus with 2 samples.

Results

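Myelin and oligodendrocyte transcripts were examined in the cerebellar granule cell layer of the mouse through 10 genes: Mbp, Mobp, Mal, Cldn11, Mog, Mag, Cnp, Ermn, Ugt8a and Olig1. They were chosen by name, and every probe set that the platform's annotation ties to 1 of these symbols alone was used. This gave 26 probe sets for the 10 genes, out of 34945 named probe sets for 18193 genes. The samples were 2 pieces of granule cell layer, cut by laser capture microdissection from the cerebellum. The labels describe male C57BL/6J mice, 8 weeks old and intact, and name no genetic change or treatment. Each piece was hybridised to 1 Affymetrix array. Both titles name animal 1, so the samples, called array 1 and array 2 here, may come from 1 animal, and the spread between them may be technical.

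Oligodendrocytes wrap axons in myelin, a stack of lipid-rich membrane that is held tight by a few abundant proteins. Basic proteins on the cytoplasmic side bring the inner membrane faces together, tetraspan proteins seal and sort the membrane, and immunoglobulin-like proteins lie on the outer and axon-facing surfaces. In the granule cell layer, myelinated fibres pass between granule neurons on their way to and from the white matter beneath. RNA of this layer is a mixture of all its cells, in which fewer cells of a type and less RNA per cell cannot be told apart.

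The arrays gave signal intensities in linear array units, with a median of 7.9 in array 1 and 8.3 in array 2 over 45101 probe sets. A gene was called above background when its brightest probe set exceeded the 95th percentile of 69 measured genes typical of other organs, which was 13.2 in array 1 and 15.9 in array 2. For single probe sets these thresholds were 12.4 and 14.9. All 8 granule neuron genes examined were above background in both arrays, against 45.5% of all named genes. Among the 8 was Gabra6, a GABA-A receptor subunit of granule neurons, at 8189 and 8327. These genes were listed with earlier results of these data known, so their count is no check of the label. With 1 group of 2 samples nothing was tested, and each value below is a description of these arrays. Intensity varies with probe affinity, so levels of different probe sets are not read as the relative abundance of the genes.

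Of the 10 genes, 9 were above background in both arrays, against 45.5% of all named genes. Mag was the exception and passed in array 1 only. The 10 genes and the background genes were chosen with earlier results of these data known, so this count only describes them. Of the 26 probe sets, 19 passed in both arrays, against 36.9% of all named probe sets, while 2 passed in array 1 only, 1 in array 2 only and 4 in neither. The brightest probe set of every one of the 10 genes differed by less than 2-fold between the arrays. Across all genes above background in at least 1 array, 24.4% were 2-fold or more apart.

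Mbp, myelin basic protein, glues the cytoplasmic faces of compact myelin together, and its gene also gives Golli transcripts from an upstream start, which are known from neurons and immune cells. It had 8 probe sets, of which 7 were above background in both arrays. The brightest, 1456228_x_at, read 5722 in array 1 and 5133 in array 2, a mean of 5428 ± 416 (SD, n = 2). The next, 1436201_x_at, read 4055 and 3973, and 1454651_x_at read 3422 and 3420. The arrays were thus nearly equal at the bright end of Mbp, with log2 differences (array 1 minus array 2) of 0.16, 0.03 and 0.00059.

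These 3 bright Mbp probe sets are of the _x_at kind, in which some probes can match other sequences. The probe set 1433532_a_at, whose probes match several transcripts of 1 gene, also gave a high reading of 2698 in array 1 and 2714 in array 2. The probe set 1419646_a_at read 465 and 610. Mbp therefore stayed far above background without the _x_at and _s_at probe sets. Its dimmer probe sets were 1425263_a_at at 55.3 and 34.6 and 1425264_s_at at 33.8 and 28.9. The last, 1451961_a_at, was at 5.2 in array 1 and 18.4 in array 2, above background in array 2 alone. Which Mbp transcripts each probe set reads, Golli included, was not tested.

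Mobp, the myelin-associated oligodendrocytic basic protein, is a small basic protein of compact myelin like Mbp. Its probe set 1433785_at read 247 in array 1 and 370 in array 2, and 1436263_at read 126 and 97.1. The probe set 1421010_at read 138 in array 1 and 52.1 in array 2, a 2.66-fold difference toward array 1. Probe sets of Mobp thus pointed in opposite directions, with log2 differences of −0.58, 0.37 and 1.41. The remaining 1450088_a_at (8.9 and 1.0) and 1441308_at (0.6 and 2.4) were below background in both arrays.

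The region before the Mobp start is shown because Sox10, a transcription factor of the oligodendrocyte lineage that binds sites of the ACAAAG and ACAATG type, was itself measured here. Letters are from RefSeq's gene starts on GRCm38.p6, 5′ to 3′ on the gene's own strand, and capitals mark ACAAAG or ACAATG on either strand. These are the 250 bases before the start of Mobp (chr9:120149492-120149741, plus strand) and of Cnp (chr11:100574689-100574938, plus strand).
Mobp: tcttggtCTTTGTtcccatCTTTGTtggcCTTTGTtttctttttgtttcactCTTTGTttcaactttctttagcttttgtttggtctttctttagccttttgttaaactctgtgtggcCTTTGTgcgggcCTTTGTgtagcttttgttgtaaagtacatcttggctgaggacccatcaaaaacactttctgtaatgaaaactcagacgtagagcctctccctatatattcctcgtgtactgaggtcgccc
Cnp: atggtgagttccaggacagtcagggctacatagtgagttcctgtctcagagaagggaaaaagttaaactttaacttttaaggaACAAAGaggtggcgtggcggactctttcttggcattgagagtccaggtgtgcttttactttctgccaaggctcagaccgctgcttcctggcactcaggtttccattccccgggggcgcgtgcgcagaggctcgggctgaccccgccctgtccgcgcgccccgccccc

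The Mobp stretch held 6 ACAAAG matches, all on the minus strand, from base 243 to base 115 before the start, and the Cnp stretch held 1. The table had starts for 8 of the 10 genes, 10 starts in all, and 5 of the 10 held a match: those of Mobp, Cnp and Ermn, and 2 overlapping starts of Mag that share the same site. Of the 32851 starts of all genes searched in the same way, 25.2% held one, and Mobp's was the only one with 6 or more. The motifs were chosen after the sequences had been seen. A match describes letters and is not a binding site.

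Mal and Cldn11 are membrane-spanning proteins of myelin. Mal takes part in sorting membrane to the myelin sheath, and Cldn11 is the claudin of its tight junctions. The Mal probe set 1417275_at read 129 in array 1 and 181 in array 2, while 1432558_a_at read 20.2 and 8.4 and passed in array 1 alone. The single Cldn11 probe set, 1416003_at, read 71.7 and 66.1, a mean of 68.9 ± 3.96 (SD, n = 2). Cldn11 was close to equal in both arrays, whereas the brighter Mal probe set was 1.4-fold higher in array 2 and the dimmer one 2.4-fold higher in array 1.

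Mog and Mag, the immunoglobulin-like proteins of the myelin surface, were the dimmest of the 10 genes and had 1 probe set each. Mog, on the outermost face of the sheath, read 19.6 in array 1 and 23.7 in array 2. Mag, on the face toward the axon, read 19.0 and 14.6, which put it above the threshold in array 1 and below it in array 2. Both lay near background. With the 99th percentile as the threshold 7 of the 10 genes passed in both arrays, against 25.6% of all named genes. Cldn11, Mog and Mag did not. With the 90th percentile all 10 passed, Mag included, against 48.8% of all named genes.

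Cnp and Ermn belong to the cytoplasm of the oligodendrocyte. Cnp, the enzyme 2′,3′-cyclic nucleotide phosphodiesterase, is found in the uncompacted parts of the sheath, and ermin (Ermn) is linked to the actin cytoskeleton late in myelination. The brightest Cnp probe set, 1437341_x_at, read 1646 in array 1 and 1610 in array 2. The other Cnp probe sets were far dimmer, with 56.8 and 45.8 for 1418980_a_at and 6.1 and 12.7 for 1449296_a_at. Cnp was therefore above background with or without its _x_at probe set, but its high reading came from that probe set alone.

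The probe sets of Ermn pointed in opposite directions. The brighter, 1440902_at, read 135 in array 1 and 238 in array 2, the largest difference among the brightest probe sets of the 10 genes (log2 −0.82). The dimmer, 1436578_at, read 33.5 and 24.7 (log2 0.44). Both were above background in both arrays.

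Ugt8a makes galactosylceramide, the main glycolipid of myelin, and Olig1 is a basic helix-loop-helix transcription factor needed for oligodendrocyte maturation. The Ugt8a probe set 1419063_at read 166 in array 1 and 227 in array 2, whereas 1419064_a_at read 0.6 and 3.9, below background in both. The single Olig1 probe set, 1416149_at, read 328 and 375. Olig2, the related factor that sits next to Olig1 on chromosome 16, read 2.9 and 5.0 with its 1 probe set and was below background in both arrays. Differences in probe affinity bear on the Olig1 and Olig2 readings alike, so no ratio between them is given.

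**Figure D1:**
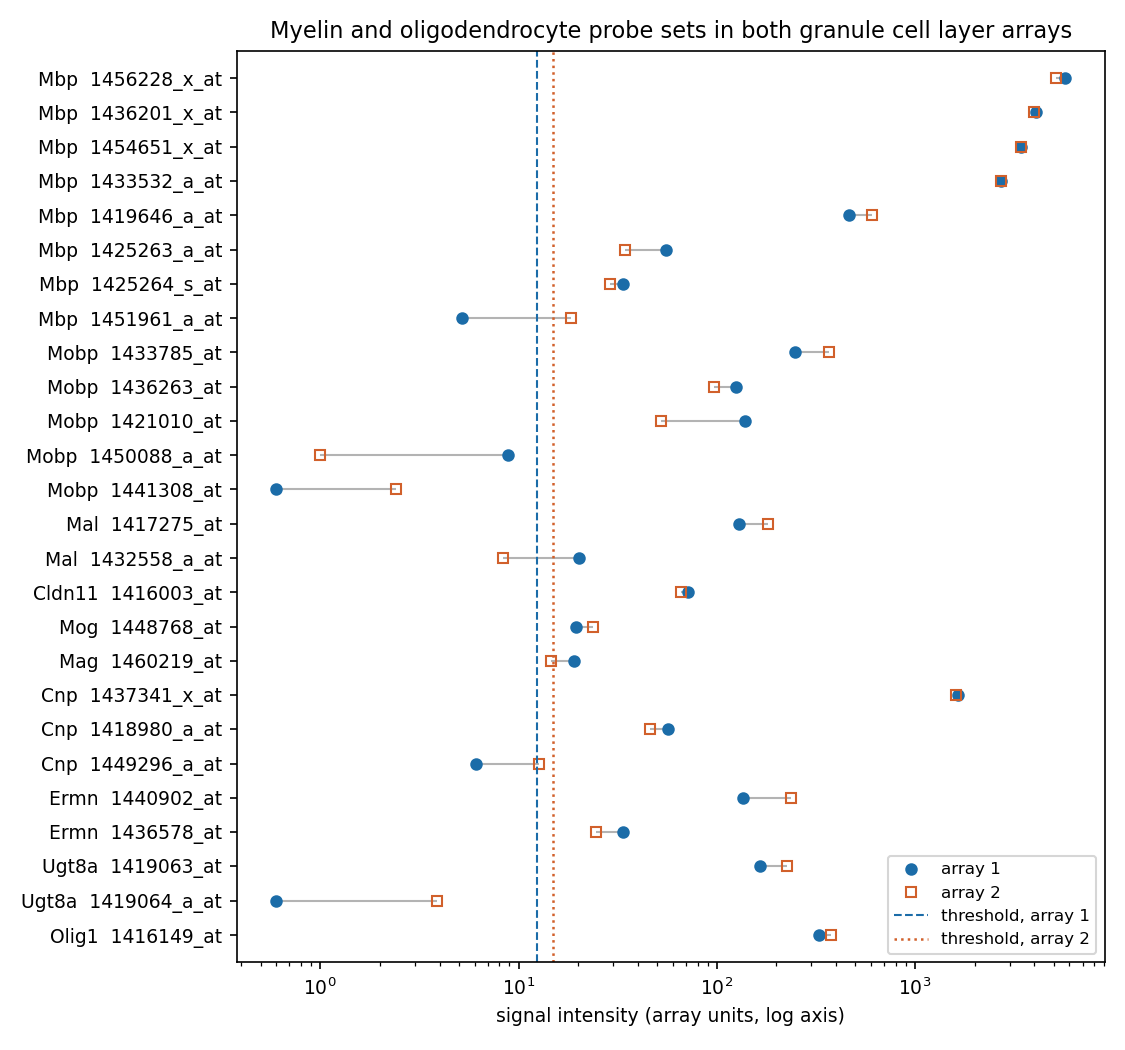
Signal intensity (array units, log axis) of each of the 26 probe sets of the 10 genes in array 1 (filled circles) and array 2 (open squares), with lines at the probe set thresholds of 12.4 and 14.9. Probe sets of Mbp spread from 5.2 to 5722, and those above 1000 almost coincide between the arrays.

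The difference between the arrays depended on intensity for these genes as for all others. The 5 probe sets with a mean of 1000 or more, all of Mbp or Cnp, were within 0.16 on the log2 scale. Of the 656 named probe sets there, 100% were within 2-fold, and the SD of their log2 difference was 0.20. All 7 between 100 and 1000 were within 2-fold, against 93.0% of the 4543 named probe sets there. Between 20 and 100, 6 of 7 were within 2-fold, against 70.7% of 7734, and 1421010_at of Mobp was the other. Under 20 only 1 of 7, that of Mag, was within 2-fold, against 42.4% of 22012.

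Of the 10 brightest probe sets, 4 were higher in array 1 and 6 in array 2. They ranged from a log2 difference of −0.82 for Ermn to 0.38 for Mag, with a median of −0.23, beside a median of −0.04 over 10309 genes above background in at least 1 array. Over the 22 probe sets above background in at least 1 array the median was 0.03, with 13 higher in array 1 and 9 in array 2. With the mean of all probe sets of each gene, the median over the 10 genes was −0.10. Of these medians only that over single probe sets was positive, Mbp alone having 8 of the 26. Of the 22 probe sets, 2 were at least 2-fold higher in array 1 (1421010_at of Mobp and 1432558_a_at of Mal), against 14.4% of all, and 1 in array 2 (1451961_a_at of Mbp), against 14.6%.

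**Figure D2:**
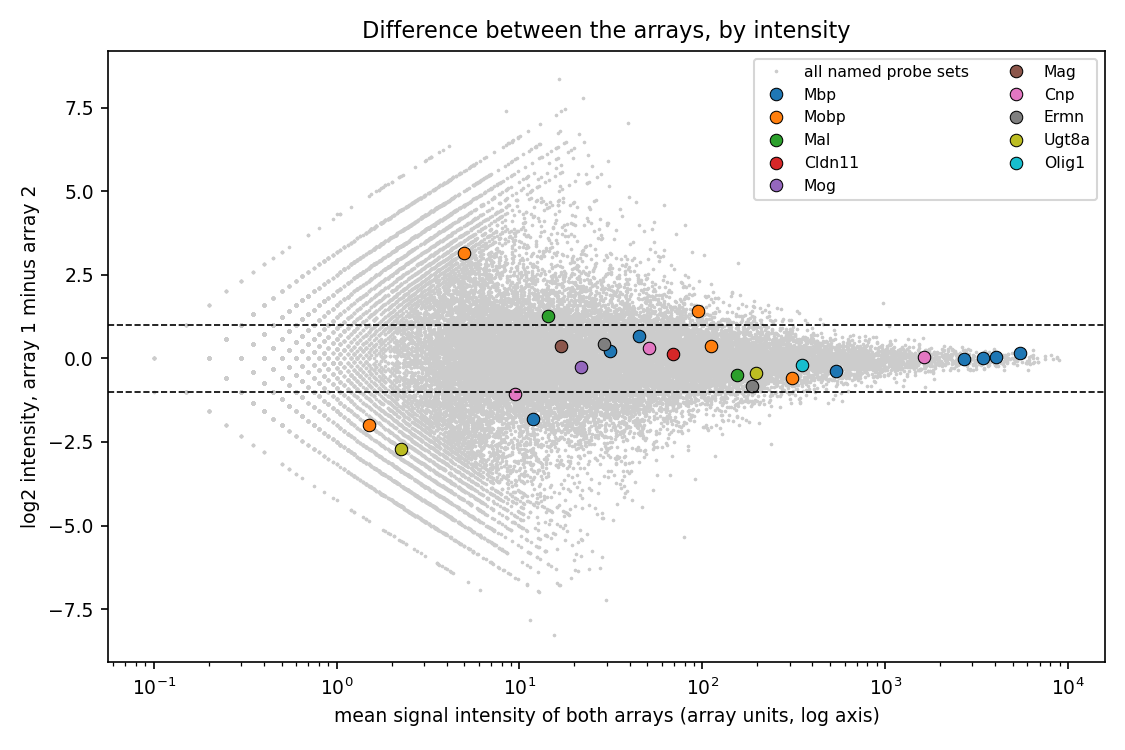
Log2 difference between the arrays (array 1 minus array 2) against mean signal intensity (array units, log axis), with the 26 probe sets coloured by gene over all 34945 named probe sets in grey. Dashed lines mark 2-fold, and of the 26 probe sets those with a mean above 100 all lie between them.

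Several genes had probe sets that disagreed. Of the 6 genes with more than 1 probe set, 5 had some above and some not above background, as did 49.6% of 9010 such genes in all. Ermn was the exception. Of the 4 genes with at least 2 probe sets above background, 3 (Mbp, Mobp and Ermn) had probe sets pointing in opposite directions, as did 51.3% of 2994 such genes. The 2-cycle amplification used for about 1 ng of RNA favours the 3′ end of transcripts. The control probe sets for Gapdh gave a 3′ to 5′ intensity ratio of 10.3 ± 0.231 (SD, n = 2), and those for Actb 33.4 ± 6.29. The part of this in the spread among probe sets of Mbp, Mobp and Cnp was not tested.

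Other genes of the myelin sheath were mostly above background. Where 45.5% of all named genes passed in both arrays, 14 of 19 measured structural genes outside the 10 did. They included the small heat shock protein gene Cryab (677 and 784), Bcas1, a gene of newly myelinating oligodendrocytes (743 and 712), Plekhb1 (401 and 330) and the septin gene Septin4 (278 and 212). The gap junction genes Gjb1 (4.9 and 0.7) and Gjc3 (2.5 and 9.3), whose connexins couple oligodendrocytes to each other and to astrocytes, were below background in both arrays. Each of the remaining genes, Hapln2, Jam3 and Pllp, also missed the threshold in at least 1 array. Which cells of the layer gave the readings of this list was not tested.

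Of 11 measured lipid genes, 10 passed in both arrays, against 45.5% of all named genes. The fatty acid elongase gene Elovl7 (15.0 and 12.6) passed in array 1 alone. The brightest were the cholesterol synthesis gene Hmgcs1 (997 and 1191), the desaturase Scd2 (811 and 861), the sphingolipid desaturase Degs1 (414 and 313) and Acsl3 (159 and 141), which many cell types use. Gal3st1, which sulphates the product of Ugt8a to give sulphatide, read 17.6 and 22.2. Ugt8a and the next enzyme of its pathway were therefore both above background, Gal3st1 narrowly.

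Of 9 measured transcription factors of the lineage beside Olig1, 4 passed in both arrays, a share near the 45.5% of all named genes. St18 read 1143 and 1192, Myrf, the membrane-bound regulator of myelin genes, 31.5 and 28.6, and Sox10 22.5 and 36.0. The zinc finger factor Zeb2 read 83.9 and 39.2, a 2.14-fold difference toward array 1. Sox8 (3.4 and 5.3) and Olig2 were below background. Sox10 also had a second probe set above background in both arrays (12.8 and 17.0) and another that was not (9.1 and 5.8).

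Of 19 other genes of mature oligodendrocytes, 8 passed in both arrays, a further 5 in array 1 only and 3 in array 2 only. The share in both arrays was near the 45.5% of all named genes. Qdpr, a pteridine reductase that other cells also make, read 4307 and 3557, Ndrg1 285 and 354, and the sphingosine-1-phosphate receptor S1pr5 50.4 and 43.0. The carbonic anhydrase gene Car2 read 137 in array 1 and 51.4 in array 2, a 2.66-fold difference. Opalin, a marker of mature myelinating cells, read 17.4 and 12.4 and passed in array 1 alone, and Gamt (8.2 and 12.0) and Ninj2 (8.1 and 4.0) passed in neither.

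**Figure D3:**
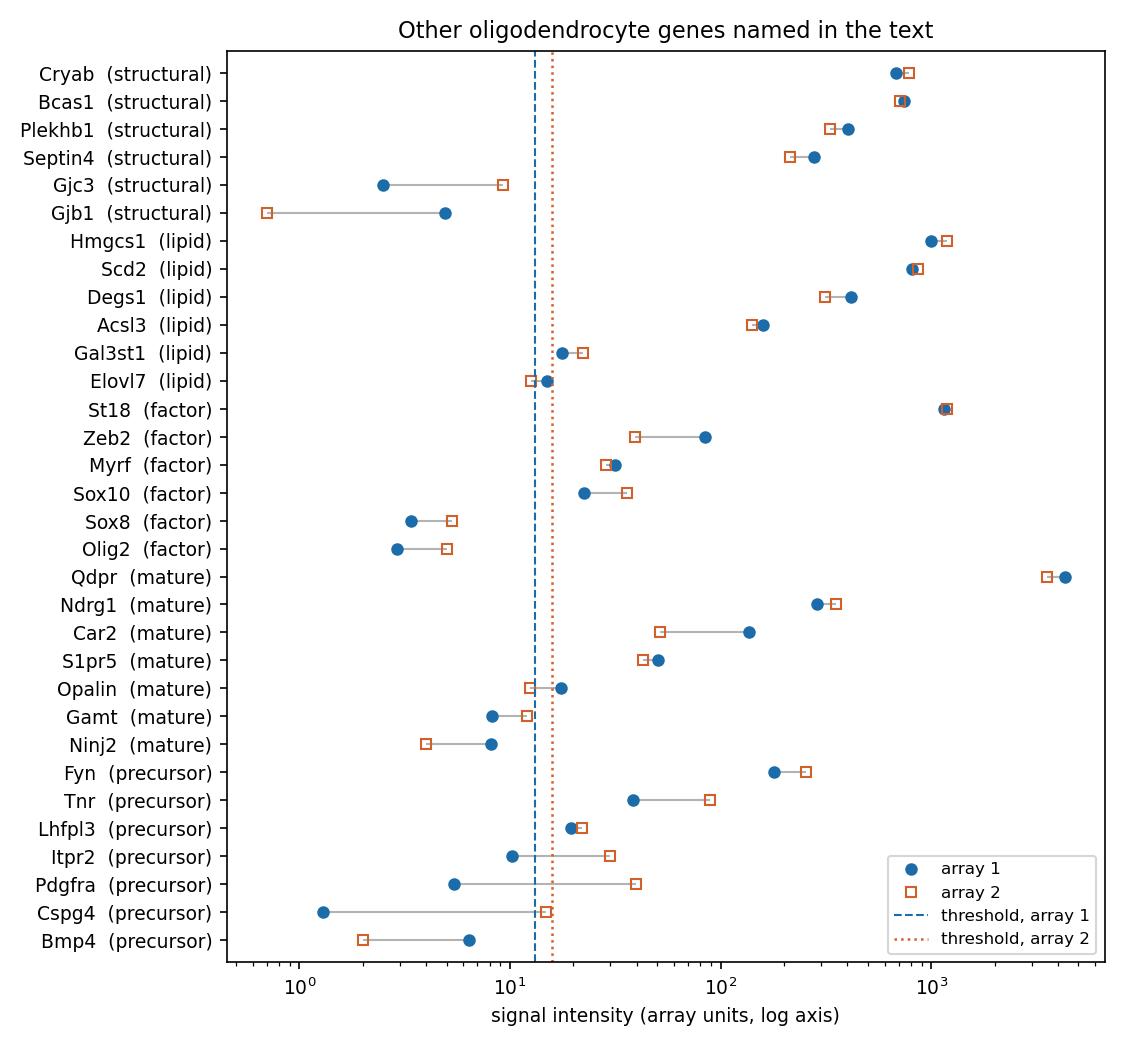
Signal intensity (array units, log axis) of other oligodendrocyte-lineage genes in array 1 (filled circles) and array 2 (open squares), grouped as structural, lipid, transcription factor, mature and precursor genes, with lines at the gene thresholds of 13.2 and 15.9. Pdgfra reads 5.4 in array 1 and 39.7 in array 2, on opposite sides of the thresholds.

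Of 11 measured genes of oligodendrocyte precursors and premyelinating cells, 3 were above background in both arrays, 2 in array 1 only and 3 in array 2 only. The share in both arrays was below the 45.5% of all named genes. The kinase gene Fyn (179 and 253), the matrix gene Tnr (38.2 and 88.8) and Lhfpl3 (19.5 and 22.0) passed in both. Fyn and Tnr are known from neurons as well. The precursor receptor Pdgfra read 5.4 in array 1 and 39.7 in array 2, and its other probe sets (0.5 and 5.9, 3.8 and 0.5) were below background. Cspg4, the NG2 proteoglycan of precursors, read 1.3 and 14.9 and passed in neither. Counted in each array by itself, 5 of the 11 passed in array 1 and 6 in array 2. Of 18193 named genes, 8282 passed in both arrays and 10309 in at least 1. Their share in each array by itself was not counted.

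Against 45.5% of all named genes, 1 of 6 measured genes of peripheral myelin, made by Schwann cells, passed in both arrays. This was Pmp22 (34.5 and 55.7), a tetraspan protein that is also made outside Schwann cells. Drp2 (15.6 and 14.4) passed in array 1 alone. Ncmap (3.5 and 10.3), Pmp2 (10.4 and 1.5), the hedgehog ligand Dhh (0.8 and 4.1) and the Schwann cell factor Egr2 (0.2 and 4.0) were below background.

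Of 12 neuronal genes of the node and its flanks, where axon and myelin meet, 11 passed in both arrays, against 45.5% of all named genes. Contactin 1 (Cntn1), an axonal adhesion protein of the paranode, read 1072 and 825, the potassium channel Kcna1 536 and 727, the nodal anchor Ank3 379 and 502, and Cntnap2 290 and 296. The adhesion gene Nfasc, whose forms lie on both the glial and the axonal side, read 27.9 and 36.5. Cntnap1, the axonal partner of Cntn1 at the paranode, read 3.3 and 9.2 and was below background.

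Lists of other cell types were counted in the same way, beside the 45.5% of all named genes. Above background in both arrays were 6 of 7 astrocyte genes, 4 of 7 microglia genes, 3 of 6 endothelial genes, 5 of 6 Purkinje cell genes and 0 of 4 choroid plexus genes. The summed intensity was 5470 in array 1 and 5189 in array 2 for the astrocyte list, 619 and 883 for the microglia list, 922 and 895 for the endothelial list and 719 and 790 for the Purkinje cell list. The microglia sum followed Csf1r (251 and 411), Ctss (218 and 313) and C1qb (63.4 and 121), while Tyrobp (56.3 and 25.9) and Cx3cr1 (29.0 and 7.9) were more than 2-fold higher in array 1. The endothelial sum followed Slc2a1 (703 and 790). All other genes of that list were higher in array 1, among them Cldn5 (136 and 73.9), Flt1 (50.2 and 18.5) and Tek (23.6 and 8.9). Below background in both arrays were Aif1 and Itgam of the microglia list and Cdh5 and Pecam1 of the endothelial list. So were Slc1a6 of the Purkinje cell list and Aqp1, Kl and Ttr of the choroid plexus list. The part of these cell types in the readings of the 10 genes was not tested.

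**Figure D4:**
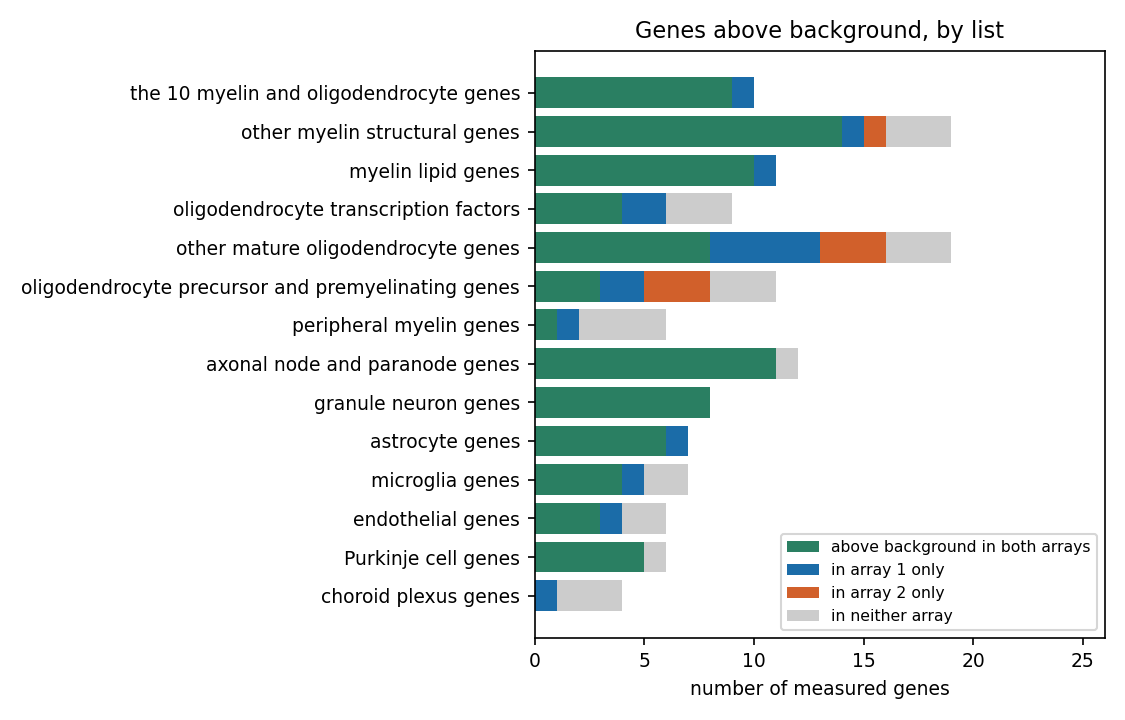
Number of measured genes in each list that were above background in both arrays, in array 1 only, in array 2 only or in neither. The 10 genes have 9 in both arrays, and the precursor list has 3 of 11, beside 45.5% of all named genes.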

How the data were processed

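The deposited table held a linear signal intensity for each probe set in each array. The authors made it with GCOS, Affymetrix's operating software, per the submitters' processing notes. Which version, algorithm and scaling target were used is not given in the sources used here, and the table held no detection calls. Values were used as deposited. The 2 zero values in array 1 and the 1 in array 2 were set to 0.1 before log2, and none belonged to the 10 genes. Of 45101 probe sets, 34958 had 1 gene symbol, 932 several and 9211 none, and 34754 matched RefSeq by gene ID. Control probe sets were left out. The brightest probe set stood for a gene.

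The 10 genes, the lists and the background list of 75 genes (69 measured, 96 probe sets) were chosen with earlier results of these data known. By construction a few background genes pass, here Krt10 and Tff1 in both arrays. Named from each list were up to 4 genes of highest and 2 of lowest mean log2 intensity, plus a few set lineage genes. Others named in the text for their role or count were chosen after their values were seen. Some listed genes were not analysed here. With 2 arrays, which limits the precision, no test was possible. Alternatives were other thresholds, background genes, scalings, probe set rules and single arrays. The calls were also tested on simulated data in which the 10 genes were set far above background. That simulation does not bear on readings near the thresholds. Python 3.11.15, pandas 2.3.3 and numpy 2.4.6 were used.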

Additional observations from a re-analysis of the deposited data

How the results depend on the processing

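The count of the 10 genes above background ranged from 7 (99th percentile threshold) to 10 under the other thresholds, background genes, scalings, probe set rules and single arrays. That of their probe sets ranged from 14 to 21 under the same alternatives except the mean of all probe sets, which gives no such count. No brightest probe set became 2-fold different between the arrays under any alternative run for it, and the median log2 difference stayed between −0.32 and −0.10. Over the 10 genes and the structural, lipid, transcription factor and mature lists together, 45 of 68 genes were above background in both arrays. This fell to 24 with the 99th percentile threshold, where 25.6% of all named genes passed in place of 45.5%, and was between 41 and 56 otherwise, with 49 without array 1 and 55 without array 2. At the 99th percentile the structural count was 8, the lipid count 6, the transcription factor count 1, the mature count 2, the precursor count 1 and the peripheral myelin count 0. The mature count was 13 of 19 with the 90th percentile, where 48.8% of all named genes passed in both arrays. It was 16 with olfactory receptor genes as background, where 52.5% of all named genes passed, and 13 without array 2. Counts without array 1 or array 2 need a pass in 1 array only. The share of all named genes was not counted in that way. The 3 probe sets at least 2-fold apart became 1 with the 99th percentile or log2(value + 16), 5 with the olfactory receptor background and 7 without a filter. With the mean of all its probe sets Mobp had a log2 difference of −0.0058. The planned swap to an earlier background list was not run. No paired analysis was possible because there was 1 group. Readings near the thresholds, such as those of Mag, Mog and Opalin, limit what signal over background can show.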

Other observations

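Transcript records to which exactly 2 probe sets of 1 gene were annotated existed for Cnp, Mobp and Ugt8a, each with 1 such pair. Records with more than 2 probe sets were not examined. In all 3 pairs the brighter probe set was above background in both arrays and the other was not. For Ugt8a the means were 196 and 2.25, for Mobp 95.3 and 4.95, and for the dimmer 2 of the 3 Cnp probe sets 51.3 and 9.4. Among all 1815 pairs of this kind whose brighter probe set was above background, 52.2% had the other one not above, so single probe sets at background do not show that a transcript is missing. Genes of the lists above with 1 probe set, such as Olig2, have no second reading of this kind.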
